A study of Danio rerio with 4 samples.

Results

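The neural crest and plate border regulators described here are 4 transcription factor genes, twist1a, snai1a, zic2a and tfap2a, taken by symbol from the 2477 genes of the authors' deposited gene table. All 4 symbols were found, each on a single row. The table came from primordial germ cells, from which eggs and sperm descend, of AB strain zebrafish at 13 hours post fertilization, in which the germ cells carried a germline EGFP. Of the 4 libraries, 2 came from embryos injected with a dead end morpholino and 2 from embryos injected with a control morpholino. Morpholinos are antisense oligomers that keep a target RNA from being translated or spliced, and Dead end binds RNA in the germ cells of vertebrates. The cells were isolated by fluorescence-activated sorting, so that each library was a bulk of sorted cells. The comparison asks, as the title of the series puts it, whether Dead end keeps germ cells from somatic differentiation. The labels do not say whether a morpholino blocks translation or splicing, how many embryos were pooled, or whether the 2 libraries within a group were separate clutches.

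The neural crest is a vertebrate cell population that arises where the neural plate meets the epidermis and later forms pigment cells, peripheral neurons, glia and much of the head skeleton. Wnt, BMP, FGF and Notch signals first induce border genes of the AP-2, Zic, Msx and Pax families, and these act upstream of crest specifiers such as the Snail and Twist factors, which take part in the loosening of epithelial contacts before cells migrate. None of these families serves the crest alone. In zebrafish embryos snai1a is also active in paraxial mesoderm, zic2a in the dorsal neural plate and tfap2a in non-neural ectoderm, and twist1a marks head mesenchyme and mesodermal tissue as well.

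All 4 regulators were higher in sorted cells of dead end morphants than in those of control morphants, by 5.25-fold to 12.8-fold in FPKM, a measure of fragments scaled to transcript length and library depth. In bulk samples a changed number of cells of a type and a changed amount of RNA per cell cannot be told apart. The authors' deposited table gave each of them its smallest q-value of 0.00107, where a q-value is a p-value corrected for the number of genes tested. A gene was called when the authors' q was under 0.05 and its higher group had at least 1 FPKM, and by that rule 64.6% of the 2477 genes were called higher and 33.6% lower, 98.1% in all. At q under 0.01 the 4 regulators were again called higher, as were 42.3% of all genes. Since the table held only genes with q under 0.05, the 4 of 4 regulators called higher are to be read against 64.6%, and 4 genes do not set them apart from that share. The smallest q was shared by 764 of 2431 called genes (31.4%), because the authors' p-values stopped at 5e-05. Among the 1599 genes called higher it was shared by 623 (39%). The table holds 1 value per group and none per library, so no spread between libraries can be given, and library depth is unknown.

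The largest fold belonged to twist1a (ENSDARG00000030402, chromosome 19, 2397416 to 2399443, positions taken as GRCz10), which encodes a basic helix-loop-helix factor of mesenchyme and cranial crest. The authors' deposited table listed it at 66.5 FPKM in dead end morphants, against 5.17 FPKM in control morphants. That is a 12.8-fold higher level, larger than 98.6% of the folds of the 1533 higher genes with both values above 0. It was the second highest of the 4 regulators in dead end morphants and the lowest in control morphants, where 19.4% of the genes of the table were at or below its level.

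The highest level belonged to snai1a (ENSDARG00000056995, chromosome 11, 25013878 to 25028619), a zinc finger repressor of epithelial adhesion genes. The authors' deposited table listed it at 181 FPKM in dead end morphants, against 24.0 FPKM in control morphants, a 7.54-fold higher level. It was the highest of the 4 in both groups and made up 49.2% of their summed FPKM in dead end morphants and 48.5% in control morphants.

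For zic2a (ENSDARG00000015554, chromosome 9, 31463361 to 31503578), a zinc finger factor of the neural plate and its border, the authors' deposited table listed 59.5 FPKM in dead end morphants and 8.74 FPKM in control morphants, a 6.81-fold higher level. The listed locus of zic2a spans 40218 bases, whereas that of twist1a spans 2028 bases. In a RefSeq gene table of the GRCz12tu assembly, used here for gene order alone, the gene next to zic2a is its relative zic5. This gene had no match in the authors' deposited table and was not analysed. How far fragments of neighbouring genes enter the zic2a value was not tested.

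The smallest fold belonged to tfap2a (ENSDARG00000059279, chromosome 24, 8581298 to 8592141), the AP-2 alpha factor needed in zebrafish for crest derivatives and also used in epidermis. The authors' deposited table listed it at 60.9 FPKM in dead end morphants and 11.6 FPKM in control morphants, a 5.25-fold higher level. It stood at 0.917 times the level of twist1a in dead end morphants and at 2.25 times in control morphants. In dead end morphants twist1a, tfap2a and zic2a lay within 6.94 FPKM of each other. Without values per library, neither the order of these 3 levels nor the difference between any pair of the 4 folds could be tested.

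**Figure D1:**
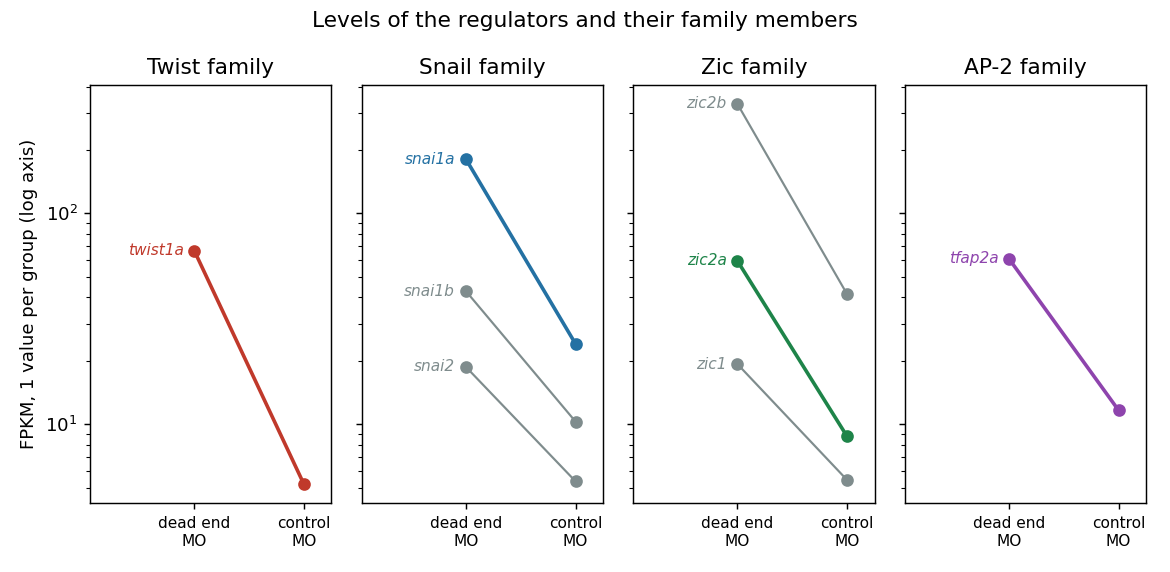
FPKM on a log axis for the genes of the Twist, Snail, Zic and AP-2 families reported here, in dead end morphants (left of each panel) and control morphants (right), 1 value per group in the authors' deposited table and therefore no error bars. The regulators described here are in colour and their relatives in grey, and every line falls towards the control group, most steeply for twist1a (12.8-fold).

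The test statistic that the authors give beside each p-value put the regulators in another order than their folds. In the authors' deposited table it was 4.78 for zic2a, 4.62 for tfap2a, 4.45 for snai1a and 4.20 for twist1a, so that the gene with the largest fold had the smallest statistic of the 4. At 5.17 FPKM in control morphants, twist1a was also the one with the lowest level in either group. The sources used here do not give how the statistic was computed.

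Relatives from the same families rose too where they were called. Beside the 4 regulators, their families hold 15 listed genes. Of these, 4 were called and all 4 were higher, where 64.6% of all genes of the table were called higher. That share compares with the 4 called and not with the 15 listed. All 4 stayed higher under each scaling tried. That was fixed in advance, since their folds of 3.49 or more exceed the largest scaling factor, 2.40. The authors' deposited table listed snai1b, the close paralog of snai1a, at 42.8 FPKM in dead end morphants and 10.3 FPKM in control morphants (4.16-fold, q = 0.0173). It listed snai2, the Slug gene, at 18.7 FPKM in dead end morphants and 5.35 FPKM in control morphants (3.49-fold, q = 0.00324 in the authors' deposited table). Among the 3 called Snail genes, snai1a therefore led in both groups, at 4.23 times the level of snai1b in dead end morphants and 2.34 times in control morphants.

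The called Zic genes, which act in neural progenitors and border cells, showed the widest range of levels. In the authors' deposited table zic2b, the paralog of zic2a, had 331 FPKM in dead end morphants and 41.3 FPKM in control morphants (q = 0.00107). That placed zic2b at 5.56 times the level of zic2a in dead end morphants and 4.73 times in control morphants. For zic1, a factor of the dorsal neural tube and somites, the authors' deposited table gave 19.3 FPKM in dead end morphants and 5.43 FPKM in control morphants (3.55-fold, q = 0.0162). The share of zic2a in the summed FPKM of these 3 Zic genes was 14.5% in dead end morphants and 15.7% in control morphants. The listed locus of zic2b spans 29138 bases, and in the RefSeq gene table zic4 is the next gene to zic1. The other listed relatives, twist1b, twist2, twist3, snai3, zic4, zic5, zic6, tfap2b, tfap2c, tfap2d and tfap2e, had no match in the table and were not analysed.

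Nearly all called genes listed by role in crest formation were higher, with the regulators and their called relatives described above counted among them. The lists of border specifiers, crest specifiers, emigration genes and inducing signals held 123 genes in all, of which 68 were called, 67 higher and 1 lower, where 64.6% of all genes of the table were called higher, 33.6% lower and 98.1% in all. As every gene of the table had q under 0.05, the counts of called genes below compare with these shares by direction. The listed genes that were not called here were not analysed. Of 30 plate border specifiers, which include zic2a and tfap2a, 16 were called and all 16 were higher, 15 of them also relative to the median ratio of all genes in the table, 2.40-fold, which gbx2 did not reach. Their median change was 2.48 in log2(FPKM + 1), dead end minus control, against a median of 1.19 over all called genes and 1.49 over the called higher genes. On this scale changes of low genes are understated, and twist1a, snai1a, zic2a and tfap2a changed by 3.45, 2.86, 2.64 and 2.30.

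Among the listed border specifiers, the largest changes were those of the Iroquois gene irx7, zic2b, the progenitor factor gene sox3, the Iroquois gene irx1b and zic2a itself. Of the 16 called, irx7, sox3, sox19a and gbx2 were also listed as neural plate markers and klf17 as an epidermis marker. The other 11 were in no other role or marker list. In the authors' deposited table irx7, a gene of the midbrain and hindbrain, had 158 FPKM in dead end morphants and 13.1 FPKM in control morphants, and irx1b had 93.8 FPKM in dead end morphants and 13.0 FPKM in control morphants. The authors' deposited table also held border genes of other families, with pax3a at 19.4 FPKM in dead end morphants and 4.30 FPKM in control morphants. In that table msx1b, a BMP-responsive homeobox gene, had 61.3 FPKM in dead end morphants and 13.2 FPKM in control morphants. The smallest fold was that of gbx2, a hindbrain and border homeobox gene, at 18.1 FPKM in dead end morphants and 7.62 FPKM in control morphants (2.37-fold, q = 0.0484 in the authors' deposited table).

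**Figure D2:**
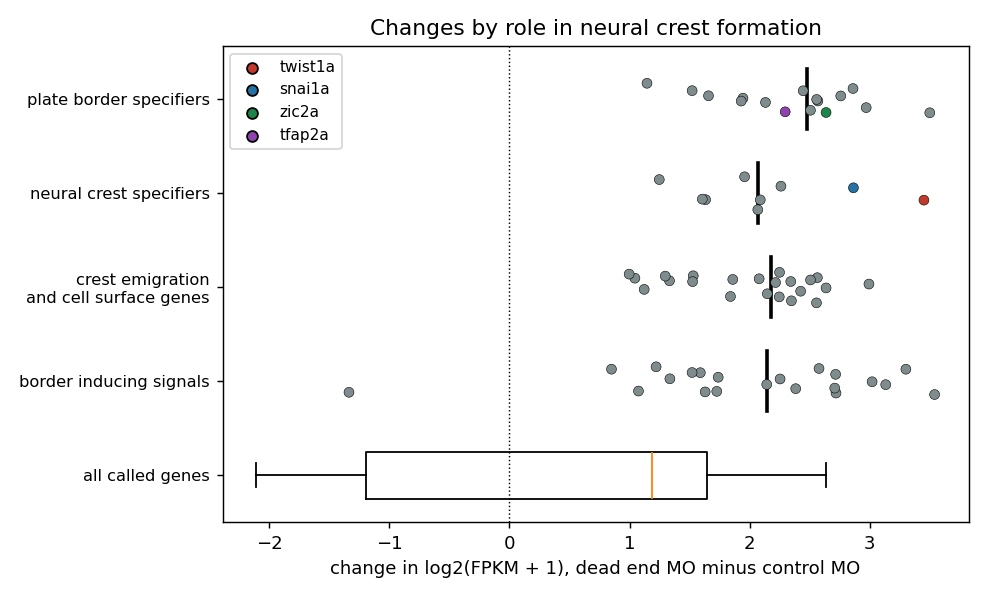
Change in log2(FPKM + 1), dead end minus control, for every called gene of 4 lists by role, where black bars are list medians, coloured points the regulators and the box all 2431 called genes (quartiles, median, whiskers at the 5th and 95th percentile). The medians of the 4 lists lie between 2.07 and 2.48, and the single point below 0 is smad1.

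Of 30 listed crest specifiers, 9 were called, with twist1a and snai1a among them, all higher, against 64.6% of all genes. That share compares with the 9 called and not with the 30 listed. Why the others had no match in the table was not analysed. The median change of the 9 called was 2.07 in log2(FPKM + 1), against 1.19 over all called genes and 1.49 over the called higher genes. Within this list twist1a and snai1a had the largest changes, followed by mycn, id1 and lmo4b. The authors' deposited table gave the proliferation factor gene mycn 206 FPKM in dead end morphants and 42.2 FPKM in control morphants (4.88-fold). The BMP target id1, an inhibitor of basic helix-loop-helix factors, had the highest level in the list, at 1064 FPKM in dead end morphants and 249 FPKM in control morphants of the authors' deposited table. Of the factors and markers most specific to the crest in zebrafish, foxd3, sox10, sox9b, crestin, mitfa and ltk had no match in the table, which held only genes with q under 0.05. Their levels were therefore not analysed. The called specifiers are genes that other tissues use as well.

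Genes of emigration and of the cell surface were called for 22 of 33 and were all higher, against 64.6% of all genes, 19 of them also relative to the 2.40-fold median ratio. Their median change was 2.18 in log2(FPKM + 1), against 1.49 over the called higher genes. The hyaluronan synthase gene has2, whose product loosens the matrix around migrating cells, had 27.6 FPKM in dead end morphants and 2.60 FPKM in control morphants (10.6-fold) in the authors' deposited table. Both fibronectin genes rose, fn1b by 6.36-fold and fn1a by 6.08-fold, in the authors' deposited table. The planar polarity gene prickle1b and the guidance receptor gene epha4a rose 6.20-fold and 6.07-fold there. Snail, Twist and Zeb factors repress E-cadherin in epithelia of other systems. The E-cadherin gene cdh1 had 49.3 FPKM in dead end morphants and 22.1 FPKM in control morphants (2.23-fold higher, q = 0.00637, in the authors' deposited table). Whether these factors act on cdh1 in the sorted cells was not tested. The N-cadherin gene cdh2 had 321 FPKM in dead end morphants and 130 FPKM in control morphants (2.47-fold) in that table. The ratio of cdh2 to cdh1 was 6.51 in dead end morphants and 5.88 in control morphants. Relative to the 2.40-fold median ratio, cdh1, zeb1a (2.13-fold) and robo1 (2.15-fold) were lower in dead end morphants, while all 4 regulators stayed higher.

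Of 30 genes for the inducing signals and their receptors, 21 were called, 20 higher (17 relative to the 2.40-fold median ratio) and 1 lower, against 64.6% and 33.6% of all genes. Their median change was 2.14 in log2(FPKM + 1), against 1.19 over all called genes and 1.49 over the called higher genes. The Delta ligand gene dld and the Notch receptor gene notch1a were higher by 12.2-fold and 6.67-fold, as the authors' deposited table lists them. The authors' test statistic was 7.34 for dld (q = 0.00107) but only 0.776 for notch1a (q = 0.0129). The BMP antagonist gene nog1 had 25.4 FPKM in dead end morphants and 2.01 FPKM in control morphants (12.6-fold, q = 0.0116) there. The Wnt receptor gene fzd7b rose 8.31-fold and aldh1a2, which encodes the enzyme that makes retinoic acid, 11.1-fold in the authors' deposited table. A single gene was lower, smad1, a transducer of BMP signals, at 12.7 FPKM in dead end morphants and 33.6 FPKM in control morphants (2.64-fold lower, q = 0.00637, in the authors' deposited table). Its relative smad5 had 137 FPKM in dead end morphants and 43.5 FPKM in control morphants (3.14-fold higher, in the authors' deposited table). The smallest rises were those of tcf7l1a (1.82-fold), fzd8a (2.21-fold) and axin2 (2.39-fold) in the authors' deposited table, all below the 2.40-fold median ratio of the table.

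**Figure D3:**
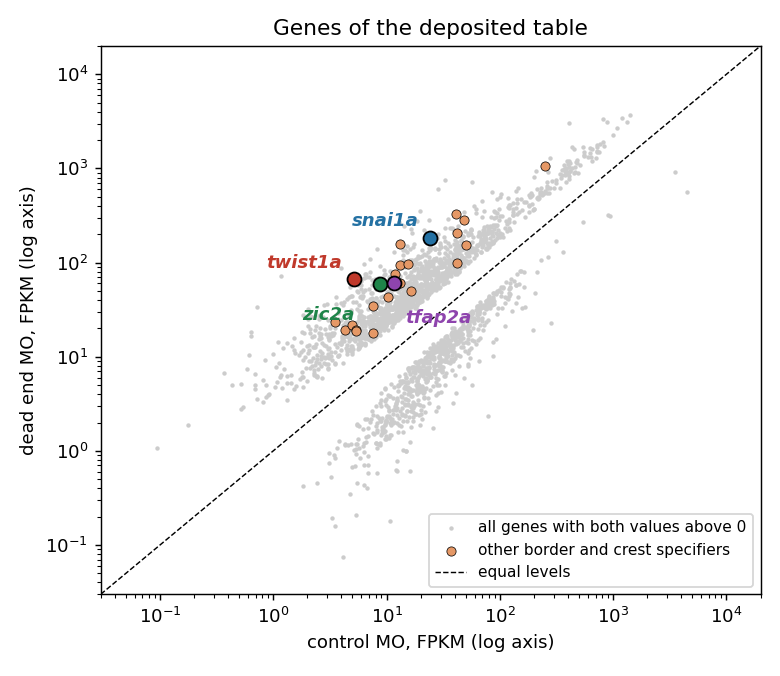
FPKM in dead end morphants (vertical, log axis) against FPKM in control morphants (horizontal, log axis) for every gene of the authors' deposited table with both values above 0, with the 4 regulators in colour and the other listed border and crest specifiers in orange. The regulators lie above the line of equal levels in the upper part of the cloud, and the empty band along that line reflects that all genes of the table had q under 0.05.

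The genes whose pair of levels was most like that of each regulator were found by distance in log2(FPKM + 1) over the 2 group values, so likeness here means a similar level in both groups and no more. For snai1a the nearest was sox3, a neural progenitor factor gene, at a distance of 0.00723, with 181 FPKM in dead end morphants and 24.1 FPKM in control morphants in the authors' deposited table, ahead of greb1l (0.0568) and si:dkey-261h17.1 (0.0952). For twist1a they were irx3b (0.169), the Wnt receptor gene fzd8b (0.171) and polr1d (0.231), each higher by 10.2-fold to 11.2-fold. For zic2a they were sp8b (0.0675), sox5 (0.0709) and mycb (0.0798), and for tfap2a they included hoxb9a (0.0490) and the semaphorin receptor gene nrp2b (0.0597). The 3 nearest distances of twist1a all exceeded those of the other 3 regulators.

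Other genes of the table within 100 kb of a regulator's locus were few. Near snai1a lay trpc4apa (2.87-fold higher) and top1l (3.33-fold higher) in the authors' deposited table. Near twist1a lay sp8a, a limb and forebrain factor gene, which had 10.9 FPKM in dead end morphants and 1.56 FPKM in control morphants in the authors' deposited table. Also near twist1a lay the biotinidase gene btd, with 2.45 FPKM in dead end morphants and 18.3 FPKM in control morphants in the authors' deposited table. Near zic2a and tfap2a the table had no other gene within this distance.

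Markers of germ cells and of the tissues that share these regulators moved at the same time. Of 12 germ cell markers, 9 were called and all 9 were lower, against 33.6% of all genes, with a summed level of 2277 FPKM in dead end morphants and 10325 FPKM in control morphants and none at 0 in either group. The sorted cells thus carried germ cell transcripts in both groups, and the largest changes in log2(FPKM + 1) were those of piwil2 (11.8-fold lower), ca15b (7.90-fold lower) and tdrkh (7.35-fold lower) in the authors' deposited table. In the whole table only 156 of 2477 genes were at 0 in dead end morphants and 76 in control morphants. Of 20 paraxial mesoderm markers, 13 were called, all higher, against 64.6% of all genes, with a sum of 2986 FPKM in dead end morphants and 223 FPKM in control morphants and none at 0. The largest changes of these markers in log2(FPKM + 1) were those of mespab (61.3-fold), msgn1 (22.9-fold) and tbx6 (20.9-fold), as listed in the authors' deposited table. Of 21 neural plate markers, 14 were called, all higher against 64.6% of all genes (13 relative to the 2.40-fold median ratio), led by irx7, hoxb1b and sox3, with a sum of 1200 FPKM in dead end morphants and 177 FPKM in control morphants and none at 0. Of the 14, irx7, sox3, sox19a and gbx2 were also counted above as border specifiers, and 10 were in no other role or marker list.

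Of 20 markers of epidermis and enveloping layer, 6 were called, all higher against 64.6% of all genes (3 relative to the 2.40-fold median ratio), with a sum of 608 FPKM in dead end morphants and 260 FPKM in control morphants and none at 0. In the authors' deposited table the largest changes in log2(FPKM + 1) here were those of cldni (7.41-fold), klf17 (6.20-fold) and tp63 (5.35-fold), and krt8, a keratin gene of simple epithelia, had the smallest fold at 1.81. Of the 6 called, klf17 was also counted above as a border specifier and cdh1 as an emigration gene. The keratin gene krt8 and the transcription factor gene gata3 (2.24-fold) also lay below the 2.40-fold median ratio. The 4 regulators summed to 368 FPKM in dead end morphants and 49.5 FPKM in control morphants, 7.43-fold higher. The median folds of the called markers were 10.9 for paraxial mesoderm, 5.43 for neural plate and 3.46 for epidermis. These are medians over single genes and do not compare directly with the 7.43-fold ratio of sums. What part somatic cells in the sorted fraction have in the regulators' levels was not tested. The called markers of the 3 somatic lists, like the 4 regulators, were all listed above 0 in control morphants. So were all but 76 of the 2477 genes of the table, so this does not set them apart.

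**Figure D4:**
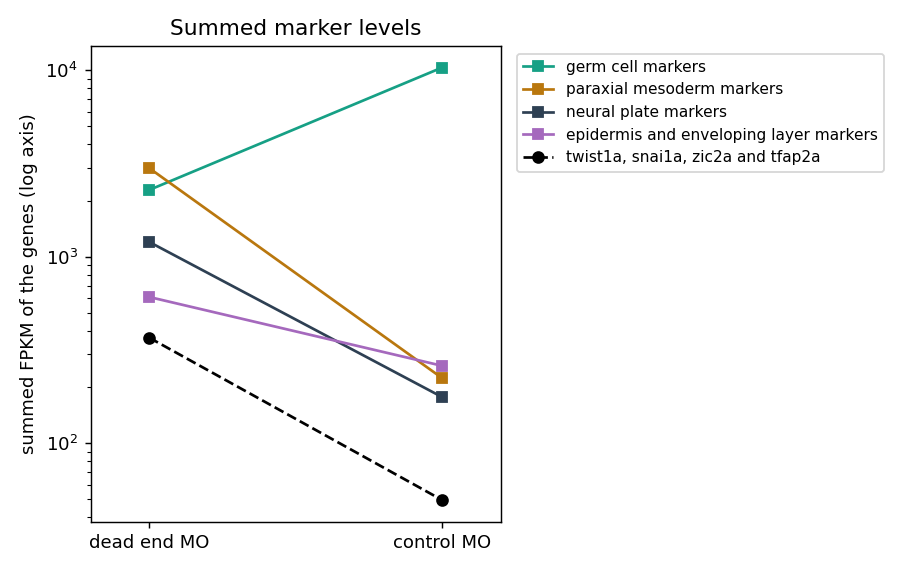
Summed FPKM on a log axis of the called genes of 4 marker lists and of the 4 regulators, in dead end morphants (left) and control morphants (right), 1 value per group in the authors' deposited table. The germ cell sum is lower in dead end morphants (2277 against 10325 FPKM), and the regulators' sum (368 against 49.5 FPKM) is higher together with the 3 somatic sums.

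The authors' deposited enrichment table, a PANTHER overrepresentation test of 1204 genes higher in dead end morphants, holds terms for the crest. Its expected numbers rest on a reference of 27187 genes and not on the 2477 genes of the gene table. The 1204 genes are also fewer than the 1599 called higher here, and how they were chosen was not analysed. Of the 374 terms in the authors' deposited table, 8 carry neural crest, neural plate, ectoderm or epithelial to mesenchymal in their name, and these stand at places 180 to 366 in its order. Neural crest cell differentiation held 26 genes where 5.27 were expected (4.93-fold, corrected p = 2.44e-07 in the authors' deposited table). Neural crest cell development held 24 against 4.83 expected (corrected p = 1.11e-06) and neural crest cell migration 17 against 3.76 expected (corrected p = 0.00147), both in the authors' deposited table. The crest terms share genes, since they are nested. The enrichment table seems to keep only overrepresented terms, so an excess over the expected number appears fixed in advance for any listed term. The highest fold of the 8 was that of neural plate development, with 6 of 11 genes (12.3-fold, corrected p = 0.0381), and epithelial to mesenchymal transition had 9 of 23 (8.84-fold, corrected p = 0.00401) in the authors' deposited table. The 3 ectodermal placode terms had between 10 and 14 genes each (7.53-fold to 7.74-fold) there. The authors' deposited table does not say which genes make up a term, so whether the 4 regulators are among them was not analysed here.

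**Figure D5:**
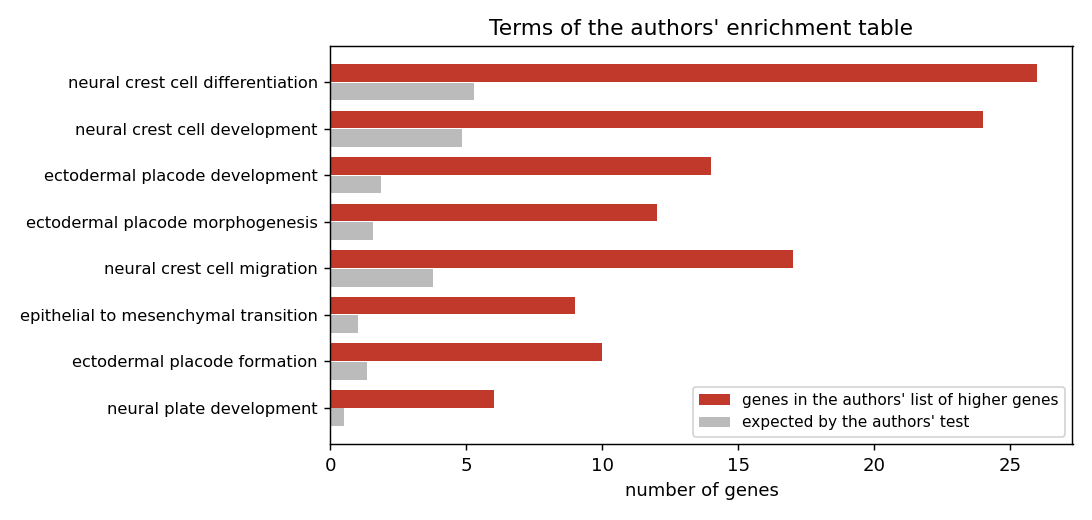
Number of genes (horizontal axis) for each of the 8 terms in the authors' deposited enrichment table. Red bars give the number found among 1204 genes higher in dead end morphants. Grey bars give the number that the authors' test expects by size from a reference of 27187 genes. The numbers run from 26 against 5.27 for neural crest cell differentiation to 6 against 0.49 for neural plate development. The found number exceeds the expected in each of the 8. That appears fixed in advance, since the table seems to keep only overrepresented terms.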

How the data were processed

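Trimming, alignment and quantification were the authors' own. Per the submitters' processing notes the tools were STAR 2.5.2b, cutadapt 1.10, Cuffdiff and Cufflinks 2.2.1, and the builds Zv9 and GRCz10 are named with no role. Positions were taken as GRCz10, since chromosome 4 of Zv9 is shorter than the largest position there, 74754136. Exon annotation was not used. Libraries came from a directional kit, per the labels' protocols, with the strand setting of the counting not given in the sources used. Paralogs such as zic2a and zic2b can share fragments.

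The authors deposited 1 FPKM value per gene and group, a log2 ratio with dead end on top (equal to that of the printed FPKM within 1.34e-05), a test statistic (a score), a p-value and a q-value, per the file headers. All 2477 rows have q under 0.05 (largest 0.0498). The authors' enrichment table gives a ratio of found to expected genes and a p-value corrected by Bonferroni for 3142 terms, as the file headers say. The authors' p-values rest on 2 libraries per group. Any spread that they take into account is that between these libraries, which may be technical.

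With 1 value per group no test was run here, and genes were called by the authors' q, given a minimum of 1 FPKM in the higher group. Values at 0 (232 genes) can be failed estimates, and none belonged to a gene named here. Lists were matched on the symbol, or on an identifier table covering 2408 identifiers. The members, the lists and the rule for named genes (the regulators and their families, the 5 largest changes and any lower gene per role list, the 3 largest per marker list, the 3 nearest genes, and the enrichment terms) were chosen with earlier results of these data known. The genes pax3a, msx1b, gbx2, cdh1, cdh2, zeb1a, robo1, smad5, tcf7l1a, fzd8a, axin2, krt8, gata3 and those near a regulator's locus were chosen for mention after seeing their values. Items that this rule or a list would name are in part not reported here. Other pseudocounts, scalings, filters and q limits were tried. Python 3.11.15, pandas 2.3.3 and numpy 2.4.6 were used. The counting by direction and the rescaling were tested on simulated data, in which neither the q limit nor the FPKM minimum left out any gene.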

Additional observations from a re-analysis of the deposited data

How the results depend on the processing

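The changes of twist1a, snai1a, zic2a and tfap2a in log2(FPKM + 1), 3.45, 2.86, 2.64 and 2.30, kept their direction under every pseudocount and scaling tried. This was fixed in advance. A pseudocount cannot change a direction, and the smallest fold of the 4 regulators, 5.25, exceeds the largest scaling factor, 2.40. The reference genes of the scalings were themselves genes with q under 0.05. Only the sizes of the changes could therefore vary. With a pseudocount of 0.1 they were 3.66, 2.91, 2.75 and 2.38, with a pseudocount of 5 they were 2.81, 2.68, 2.23 and 1.99, and with no pseudocount 3.68, 2.91, 2.77 and 2.39. With the median ratio of all genes set to 1, a shift of 1.26 in log2, they were 2.22, 1.61, 1.41 and 1.07. With the median ratio of 68 ribosomal protein genes set to 1 they were 2.25, 1.64, 1.44 and 1.10, and with equal column sums 2.46, 1.86, 1.64 and 1.30. The table holds more higher than lower genes, and its median ratio lies above 1. Setting that ratio to 1 left 1149 called genes higher and 1242 lower, against 1599 and 832 as deposited. Under each scaling the minimum of 1 FPKM was applied again to the rescaled values, so the totals differ. The other scalings left 1191 higher and 1202 lower (ribosomal protein genes) and 1474 higher and 927 lower (equal sums).

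Several genes with small rises turned lower under a scaling, by its construction. With the median ratio of all genes set to 1 the changes were -0.0046 for axin2, -0.10 for cdh1, -0.11 for fzd8a, -0.093 for gata3, -0.015 for gbx2, -0.40 for krt8, -0.14 for robo1, -0.39 for tcf7l1a and -0.16 for zeb1a. With the ribosomal protein genes they were -0.071 for cdh1, -0.082 for fzd8a, -0.065 for gata3, -0.37 for krt8, -0.11 for robo1, -0.36 for tcf7l1a and -0.13 for zeb1a, and with equal sums -0.16 for krt8 and -0.15 for tcf7l1a. The number of genes called in each list stayed within 1.5 times under q under 0.01, no filter and a minimum of 5 FPKM, as did that of the role and marker lists without genes that another of these lists holds. At q under 0.01 all 4 regulators, 13 of the 16 called border specifiers and 8 of the 9 called crest specifiers were higher, as were 42.3% of all genes. For the regulators, with q = 0.00107 in the authors' deposited table, that outcome was fixed in advance. No paired analysis was possible because the table holds 1 value per group, and for the same reason no replicate could be left out.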
